A study of Mus musculus with 2 samples.

Results

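Differentiating spermatogonia, the germ cells that express KIT and STRA8, were examined in single-cell RNA-seq data from mouse testes at postnatal day 7. A cell was taken as one of them where it met a rule on its own UMIs (unique molecular identifiers, each counted as 1 captured transcript). It needed at least 750 detected genes, at most 10% mitochondrial UMIs and at least 10000 UMIs. It needed at least 4 UMIs of the germ cell genes *Ddx4* and *Dazl* together, making up at least 3 per 10000 UMIs, and fewer than 5 per 10000 of the somatic genes *Clu*, *Acta2*, *Dlk1* and *Dcn*. Finally, *Kit* and *Stra8* together had to reach 5 UMIs and more than 2 times the UMIs of the stem cell genes *Gfra1*, *Ret* and *Lhx1*. The rule found 195 cells among 10590 cells of that depth, of which 187 came from the control library and 8 from the *Brca1* vKO library.

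The 2 libraries were each made from the testes of 1 male mouse, so no spread between animals could be measured and no test of genotype was possible. The *Brca1* vKO mouse was *Brca1* f/- *Vasa-Cre*. *Vasa-Cre* is active in germ cells from fetal gonocytes onward and deletes the floxed exons there, whereas the somatic cells of such a mouse keep 1 floxed allele beside the deleted one. The control was a littermate, and its exact genotype is not given in the labels. All intervals below are exact 95% intervals for counting error only, and cells of a library are not replicates of its genotype. With 8 cells, the *Brca1* vKO library gives a sketch of these cells and the control library gives their description.

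Male germ cells leave the stem cell pool when retinoic acid, made mainly by Sertoli cells in the first round of spermatogenesis, switches on *Stra8* and the receptor tyrosine kinase *Kit*. Its ligand KITL is presented by Sertoli cells. A KIT-positive spermatogonium divides several times before it enters meiosis, for which STRA8 is needed again. Germ cells with the opposite balance of marker genes (at least 5 UMIs of *Gfra1*, *Ret* and *Lhx1* and more than 2 times those of *Kit* and *Stra8*) served for comparison as the GFRA1 class, and germ cells that met neither condition as the intermediate class. The cells under study are called the KIT class here.

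The promoters of *Stra8* and *Kit*, the genes that define the class, and of *Lmo1*, *Crabp1* and *M1ap* are shown. *Lmo1* and *Crabp1* are 2 of the 12 genes with the highest log2 ratio (defined below) of KIT over GFRA1 class. *M1ap* has the highest such ratio among the meiotic genes tested. Each promoter is given as the 250 bases before the transcription start in RefSeq (GRCm38.p6), 5′ to 3′ on the strand of the gene. Capitals mark AGGTCA, the half-site bound by retinoic acid receptors and other nuclear receptors, or the motif CNCCTCAG (found below only on the reverse strand), which STRA8 is known to bind, each searched on both strands. The *Stra8* window, chr6:34920698-34920947 (+), held AGGTCA 2 times, beginning 194 and 38 bases before the start. The *Kit* window, chr5:75574737-75574986 (+), and the *Crabp1* window, chr9:54764498-54764747 (+), held neither motif. The *Lmo1* window, chr7:109175208-109175457 (-), held CNCCTCAG on the reverse strand from 170 to 163 bases before the start, and the *M1ap* window, chr6:82946672-82946921 (+), from 111 to 104 bases before it.
Stra8: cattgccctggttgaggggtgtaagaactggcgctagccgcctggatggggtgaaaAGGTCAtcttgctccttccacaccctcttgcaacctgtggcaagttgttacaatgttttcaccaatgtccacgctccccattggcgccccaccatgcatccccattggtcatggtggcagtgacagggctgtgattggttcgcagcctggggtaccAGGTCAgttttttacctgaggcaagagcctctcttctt
Kit: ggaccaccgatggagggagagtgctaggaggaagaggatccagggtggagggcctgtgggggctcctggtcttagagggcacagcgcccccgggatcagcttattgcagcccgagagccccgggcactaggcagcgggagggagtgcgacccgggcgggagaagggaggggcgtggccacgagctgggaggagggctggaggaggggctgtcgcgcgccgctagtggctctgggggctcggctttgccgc
Crabp1: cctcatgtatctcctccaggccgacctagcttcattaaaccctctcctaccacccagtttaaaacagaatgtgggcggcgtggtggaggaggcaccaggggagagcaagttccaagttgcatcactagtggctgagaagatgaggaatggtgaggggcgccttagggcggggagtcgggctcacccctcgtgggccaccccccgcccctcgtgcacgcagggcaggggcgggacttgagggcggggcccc
Lmo1: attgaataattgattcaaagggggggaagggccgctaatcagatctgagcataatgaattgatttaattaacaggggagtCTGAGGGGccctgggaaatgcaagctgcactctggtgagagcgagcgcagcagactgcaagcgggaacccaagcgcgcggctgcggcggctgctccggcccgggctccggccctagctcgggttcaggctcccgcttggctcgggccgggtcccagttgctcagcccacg
M1ap: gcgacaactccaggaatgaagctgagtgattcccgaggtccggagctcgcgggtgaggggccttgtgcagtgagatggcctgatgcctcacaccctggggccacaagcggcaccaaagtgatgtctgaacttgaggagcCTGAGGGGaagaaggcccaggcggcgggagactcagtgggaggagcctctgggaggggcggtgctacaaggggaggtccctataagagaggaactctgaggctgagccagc
Among the 113 genes higher in the KIT than in the GFRA1 class whose promoter was found, 9 (7.96%, 3.71 to 14.6) held CNCCTCAG and 12 (10.6%, 5.61 to 17.8) held AGGTCA. Among the 10143 tested genes whose promoter was found the shares were 8.73% and 12.6%. A gene counted where any of its windows held the motif. Among the 32851 windows searched, counted singly and so not by gene, the shares were 6.42% and 14.0%. Both shares over all tested genes lay inside the intervals of the KIT class genes. A match is a run of letters, and binding was not measured.

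The genes of the rule had the levels that the rule asks for, and differentiation genes outside the rule are given further below. The germ cell genes *Ddx4*, an RNA helicase, and *Dazl*, an RNA-binding protein, stood at 385 and 1360 CPM (UMIs per 1000000 UMIs) over the summed control KIT class and at 1.56 and 5.42 CPM in Sertoli cells, the somatic cells that nurse the germ cells. *Kit* stood at 157 CPM in the KIT class, 12 in the intermediate class and 8.92 in the GFRA1 class, and *Stra8* at 428, 80.0 and 31.2 CPM. *Gfra1*, the receptor for the stem cell factor GDNF, stood at 11.6 CPM in the KIT and 343 CPM in the GFRA1 class. The cells were chosen by their UMIs of *Kit*, *Stra8*, *Gfra1*, *Ret*, *Lhx1*, *Ddx4*, *Dazl* and the somatic genes, so differences in these describe the rule and are no finding.

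To compare cells of unequal depth, 10000 UMIs of each were kept at random (thinning). *Kit* was then seen in 71.7% of control KIT class cells, 9.23% of GFRA1 class cells and 2.17% of Sertoli cells, and *Stra8* in 74.9%, 20.8% and 0.582%. Before thinning, *Kit* and *Stra8* were seen in 93.0% and 95.2% of KIT class cells (median depth 51130 UMIs) and in 4.39% and 2.27% of Sertoli cells (median depth 19119 UMIs). The Sertoli shares show RNA from other cells only in part. Sertoli cells were admitted with fewer than 1 per 10000 of *Ddx4* and *Dazl*, which left out barcodes with more germ cell RNA. The median control KIT class cell held 1.41 UMIs of *Kit* and 3.51 of *Stra8* per 10000, and the highest 5.53 and 18.6. The cells were not cleanly separated from their neighbours by the rule. In the control, 187 germ cells with at least 5 UMIs of *Kit* and *Stra8* passed the ratio to the stem cell genes and 62 fell short of it. With exactly 5 UMIs 7 control cells passed and 8 fell short, and a further 11 control cells passed the ratio with only 4 UMIs. In the *Brca1* vKO library most germ cells with at least 5 UMIs of *Kit* and *Stra8* failed the ratio, as 8 passed and 42 fell short.

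**Figure D1:**
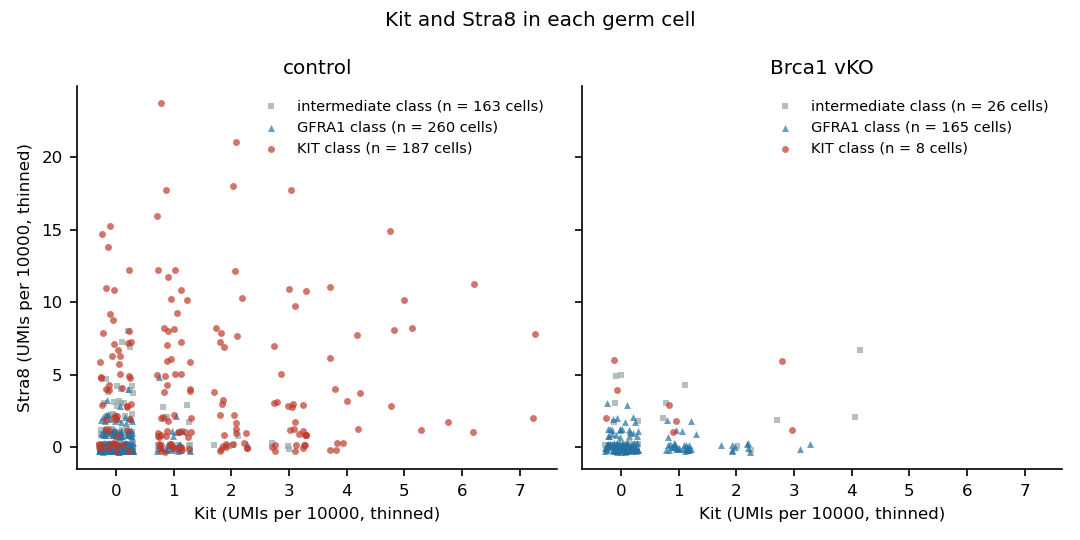
UMIs of *Kit* (horizontal) and *Stra8* (vertical) in each germ cell of the control (left) and *Brca1* vKO (right) library after thinning to 10000 UMIs, with a small random shift so that cells do not hide each other. KIT class cells (187 and 8) spread along both axes, up to 24 UMIs of *Stra8* in the control, while GFRA1 class cells (260 and 165) gather near the origin.

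More genes were lower than higher in the control KIT class against the GFRA1 class. The potassium channel gene *Kcnc2*, the transcription factor gene *Glis3* and the WNT enhancer gene *Rspo2* were far lower, and the retinoic acid binding protein gene *Crabp1*, the coregulator gene *Cited1* and the cell cycle kinase gene *Cdk6* far higher. A gene was called higher or lower here where its log2 ratio of CPM, with 10 CPM added to both, was past 1, among the 13126 genes outside the rule whose UMIs in the classes compared came to 50 or more. By this measure 144 genes (1.10%) were higher and 305 (2.32%) lower, and the median log2 ratio of all genes was 0.04. Since a gene can reach 50 UMIs through 1 class alone, these counts describe size and are no test, and the added 10 CPM shrinks the log2 ratio of low genes.

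*Kcnc2* had the lowest log2 ratio of all genes with at least 200 UMIs, at 23.2 CPM in the KIT, 184 in the intermediate and 871 in the GFRA1 class (ratio KIT over GFRA1 0.0266, 0.0232 to 0.0304). *Glis3*, which spermatogonial stem cells need to form, stood at 134, 642 and 1071 CPM (ratio 0.125, 0.118 to 0.133). *Id4*, an inhibitor of DNA binding that marks the most stem-like cells, stood at 5.09, 32.2 and 81.4 CPM (ratio 0.0625, 0.0459 to 0.0832). For each of the 3 genes the intermediate class lay between the others. After thinning, *Id4* was seen in 5.88% of KIT class cells, close to the 5.13% in Sertoli cells, and in 49.6% of GFRA1 class cells (unthinned 18.2%, 11.7% and 91.5%). *Nanos2*, a translational repressor of the stem cell state, had 0 UMIs in the 187 KIT class cells, which allows a share of cells with a UMI of up to 1.60% by a limit of 3 cells (exact upper bound 1.95%), against 6.18 CPM in the GFRA1 class. The remaining genes among the 12 with the lowest log2 ratio included the neurofilament gene *Nefm*, at 2.91 against 82.4 CPM, *Tcl1*, a coactivator of AKT signalling, at 1.45 against 62.7 CPM, and the adhesion receptor gene *Adgrl3*, at 19.4 against 190 CPM.

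Of 36 genes listed for stem and undifferentiated spermatogonia, 29 were tested, and 14 were lower and 1 higher, with a median log2 ratio of -0.95. *Etv5*, a transcription factor induced by GDNF, stood at 9.03 against 79.2 CPM (ratio 0.114, 0.0905 to 0.142). *Zbtb16*, which encodes PLZF, differed less, with 127 against 373 CPM (ratio 0.341, 0.320 to 0.363). The 1 higher gene was *Sox3*, a marker of progenitor spermatogonia, with 65.8 CPM in the KIT, 59.8 in the intermediate and 23.6 in the GFRA1 class. *Sox3* therefore set the GFRA1 class apart from both others, and the KIT over intermediate ratio was 1.10 (0.967 to 1.25). Among genes of adhesion and the cell surface, 5 of 19 were lower and 0 higher (median -0.29). They included the tight junction gene *Tjp1* (160 against 485 CPM), *Cd9* (76.0 against 186 CPM) and *Cdh1*, the E-cadherin gene (5.61 against 32.5 CPM).

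**Figure D2:**
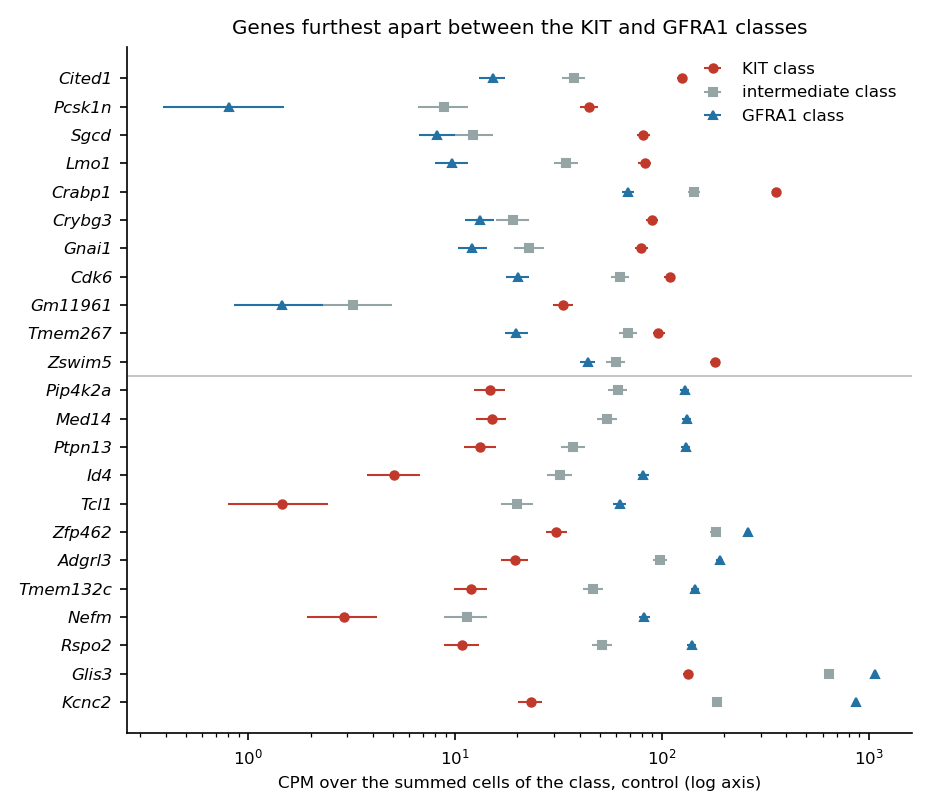
CPM over the summed control cells of the KIT (circles), intermediate (squares) and GFRA1 (triangles) classes on a log axis, with exact 95% counting intervals, for 11 of the 12 genes with the highest and the 12 with the lowest log2 ratio of KIT over GFRA1 class. *Kcnc2* ran from 871 CPM in the GFRA1 to 23.2 in the KIT class and *Crabp1* from 68.8 to 355.

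On the other side stood genes of differentiation and of retinoic acid handling. *Crabp1*, which holds retinoic acid in the cytoplasm, reached 355 CPM in the KIT, 143 in the intermediate and 68.8 in the GFRA1 class (ratio KIT over GFRA1 5.16, 4.78 to 5.57). It was seen in 94.7% of thinned KIT class cells, 44.2% of GFRA1 class cells and 1.27% of Sertoli cells (unthinned 99.5%, 78.5% and 3.38%). *Rbp4*, the secreted retinol carrier, stood at 59.2 against 19.7 CPM (ratio 3.01, 2.59 to 3.51). Both were among the 3 genes called higher of 17 tested in the retinoic acid list, none was lower, and the list median was 0.40. The gene of the retinoic acid synthesising enzyme *Aldh1a1* stood at 17.1 CPM in the KIT class, 11.5 in the GFRA1 class and 946 CPM in Sertoli cells.

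Of 20 tested regulators of differentiation, 7 were higher and 2 lower (median 0.38). *Cited1* stood at 125 CPM in the KIT, 37.6 in the intermediate and 15.2 in the GFRA1 class (ratio 8.25, 7.07 to 9.67), and at 653 CPM in the Sertoli cells of the same library. *Dmrtb1*, a transcription factor that governs the passage from mitosis to meiosis, stood at 34.9 against 3.45 CPM (ratio 10.1, 7.34 to 14.2). The X-linked homeobox gene *Esx1* stood at 26.0 against 2.65 CPM and *Lhx8*, another homeobox gene, at 20.4 against 0.723 CPM. *Sohlh1*, a transcription factor needed for differentiation and a regulator of *Kit*, reached 261 CPM in the KIT class, but its 239 CPM in the intermediate class was nearly as high (ratio 1.09, 1.03 to 1.17) and only the GFRA1 class, at 122 CPM, was set apart (ratio 2.14, 2.01 to 2.28).

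Both genes called higher of 12 tested for DNA methylation act on the same mark from opposite sides. *Dnmt3b*, a de novo DNA methyltransferase, stood at 103 against 33.7 CPM (ratio 3.05, 2.72 to 3.42), and *Tet3*, which oxidises methylated cytosine, at 134 against 33.3 CPM (ratio 4.02, 3.59 to 4.50). The list median was 0.02. Among 30 genes of KIT ligand and signalling, 2 were higher and 2 lower (median -0.04). *Grb10*, an adaptor that binds receptor tyrosine kinases, stood at 44.0 against 8.03 CPM (ratio 5.48, 4.40 to 6.89). *Pik3ca*, the alpha catalytic subunit of phosphoinositide 3-kinase, was lower in the KIT class at 39.3 against 128 CPM (ratio 0.306, 0.273 to 0.343), as was the delta subunit *Pik3cd* at 7.27 against 34.9 CPM. The ligand gene *Kitl* stood at 825 CPM in Sertoli cells and 7.79 CPM in the KIT class.

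The strongest of the other genes were less tied to germ cell biology. *Pcsk1n*, which encodes an inhibitor of prohormone processing, had the widest ratio among the 12 genes highest in log2 ratio, at 44.4 against 0.803 CPM (ratio 55.3, 29.8 to 116). *Lmo1*, a LIM domain transcription cofactor, stood at 82.5 against 9.64 CPM (ratio 8.55, 7.05 to 10.5), *Sgcd*, which encodes delta-sarcoglycan of the muscle membrane complex, at 81.4 against 8.19 CPM (ratio 9.94, 8.08 to 12.3), and *Cdk6* at 109 against 20.1 CPM (ratio 5.41, 4.71 to 6.24). Among the 12 were also *Crybg3*, *Gnai1*, *Gm11961*, *Tmem267* and *Zswim5*.

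Most genes of meiosis lay within 2-fold between the classes. Of 43 tested genes of meiotic entry and prophase, 3 were higher in the KIT class (*M1ap*, *Meioc* and *Mei1*) and none lower, with a median of 0.22. *Meioc*, which stabilises meiotic transcripts, stood at 32.4 against 10.8 CPM (ratio 3.01, 2.45 to 3.71), and *M1ap*, needed for completing meiotic prophase in males, at 86.3 against 32.5 CPM (ratio 2.65, 2.35 to 2.99). *Sycp3*, a lateral element of the synaptonemal complex, stood at 305 against 167 CPM (ratio 1.82, 1.72 to 1.93). *Sycp1*, its transverse filament, stood at 620 against 530 CPM (ratio 1.17, 1.13 to 1.21) and was seen in 100% and 98.5% of thinned cells against 1.80% of Sertoli cells. *Spo11*, whose protein makes the meiotic breaks, was at 4.98 against 6.10 CPM (ratio 0.817, 0.557 to 1.19).

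The proliferation genes set the KIT and GFRA1 classes apart little. Of 43 S phase genes none was higher and 1 lower (median 0.26), and of 52 G2/M genes none was higher and 1 lower (median -0.02). *Gmnn*, the licensing inhibitor geminin, stood at 266 against 131 CPM (ratio 2.03, 1.91 to 2.16). *Ccnd2*, a D-type cyclin, stood at 106 against 276 CPM (ratio 0.384, 0.358 to 0.412), opposite to its partner *Cdk6*. None of 39 genes of homologous recombination and the Fanconi pathway was called (median 0.14), and *Brca1* itself stood at 85.8 CPM in the KIT, 53.9 in the intermediate and 74.7 in the GFRA1 class. None was called of 12 genes of aldehyde clearance (median 0.06), 21 of the piRNA pathway (median -0.15), 18 of glycolysis (median -0.26) or 35 of the respiratory chain (median 0.19). Of 24 p53 targets and death effectors 2 were higher and 3 lower (median -0.07), the higher ones being *Ccng1* (96.5 against 39.5 CPM) and *Phlda3* (26.1 against 5.22 CPM). The log2 ratios of that list ran from -1.99 to 1.24, so its widest difference was a lower gene.

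Against the intermediate class, 90 of 12170 genes (0.740%) were higher and 148 (1.22%) lower in the control KIT class, with a median of 0.09. Scaled by edgeR's trimmed mean of M-values (TMM), which moved that median to 0.00, the counts were 59 higher and 191 lower. Of 25 stem cell genes 8 were lower and none higher, and of 19 regulators of differentiation 4 were higher and 1 lower. S phase genes had a median of 0.50 (1 of 43 higher, none lower) and G2/M genes a median of 0.24 (none of 51 called). *Upp1*, a uridine phosphorylase listed with the undifferentiated genes, was highest in the intermediate class, at 62.1 CPM against 12 in the KIT and 25.5 in the GFRA1 class. *Neurog3*, a marker of progenitors, was also highest there, with 11.5 CPM in the intermediate, 3.95 in the KIT and 2.25 in the GFRA1 class. *Upp1* and *Neurog3* were chosen after their values were seen.

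No marker of another cell type was called between the KIT and GFRA1 classes of the control, although some sums differed. None of 14 Sertoli, 8 interstitial stroma, 3 peritubular myoid, 5 endothelial, 4 red blood cell and 1 Leydig cell genes was called, and no macrophage or neutrophil gene reached the count minimum. The summed Sertoli genes reached 293 and 343 CPM and the summed stroma genes 70.5 and 69.0 CPM. The summed Leydig cell genes stood at 16.2 and 6.35 CPM (ratio 2.55, 1.94 to 3.39) and the endothelial genes at 45.4 and 74.5 CPM (ratio 0.609, 0.543 to 0.684). Of 16 genes of dissociation stress 1 was lower and none higher (median -0.38). The red blood cell genes were lower than in the intermediate class (4 of 5 genes, median -2.48), as were macrophage and neutrophil genes (3 of 3, 2.28 against 57.3 CPM). Their part in the comparisons was not tested. KIT class cells were deeper than GFRA1 class cells (medians 51130 and 45526 UMIs) and had a like mitochondrial share (medians 5.56% and 5.62%). Of the 187 control cells 5 (2.67%) were marked as likely doublets by Scrublet, near the 3.25% of the library, and they were kept. The 2 libraries shared 21 barcodes, none of them a KIT class cell.

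The same class rule was also applied to the other library, whose cells were not used above. Of 267 genes past 2-fold between the classes in the control with at least 200 UMIs in each library, 252 had the same sign in the *Brca1* vKO library, 139 were past 2-fold the same way and 0 were past 2-fold the opposite way. The minimum applied to the sum of both classes, which held 321606 (KIT) and 6402448 (GFRA1) UMIs in *Brca1* vKO. A gene could therefore reach it through the GFRA1 class alone. The same marker genes split the cells of both libraries, and signs over all genes were not counted. These counts are a description and no test. There 1.98% of 9811 genes were higher and 5.14% lower in the 8 KIT class cells than in the 165 GFRA1 class cells. *Crabp1* had 68 UMIs in the KIT and 198 in the GFRA1 class there (ratio of CPM 6.84, 5.11 to 9.05), and *Kcnc2* had 30 and 6041 UMIs (ratio 0.0989, 0.0666 to 0.141). Of the 30 *Kcnc2* UMIs, 17 came from a single cell, which held 2 UMIs of *Kit*, 3 of *Stra8* and 30 of *Glis3*. Per 10000 UMIs, all 8 cells lay above the control KIT class median of *Glis3* (0.368), and 5 lay above that of *Kcnc2* (0). *Adgrl3*, with 10 and 380 UMIs, was nearer to level than in the control (ratio 0.524, 0.249 to 0.974).

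Within the control KIT class, the Spearman correlation of *Kit* and *Stra8* over the 187 thinned cells was -0.05. The cells were admitted on the sum of both genes, which by itself lowers their correlation, so nothing is read from this value. With 3 thinned UMIs as the limit, 25 cells (13.4%) were at or above it for *Kit* only, 25 for both, 69 (36.9%) for *Stra8* only and 68 for neither, with median depths between 48680 and 56405 UMIs. Cells with *Stra8* but little *Kit* and cells with *Kit* but little *Stra8* differed in some cyclins and transcription factors. Others differed little, such as the cyclin gene *Ccnb1* (ratio *Stra8* only over *Kit* only 0.908, 0.790 to 1.05) and the transcription factor gene *Sohlh2* (0.911, 0.692 to 1.21). Both were chosen after their values were seen. *Ccnd2* stood at 26.5 CPM in *Kit* only, 148 in both, 170 in *Stra8* only and 53.4 in neither (ratio *Stra8* only over *Kit* only 6.42, 4.52 to 9.42). *Dmrtb1* ran the other way, with 57.8, 8.28, 9.26 and 63.2 CPM (ratio 0.160, 0.102 to 0.246). In both genes the cells with both transcripts were like those with *Stra8* only, and the cells with neither were nearer to those with *Kit* only.

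Other genes also differed between *Stra8* only and *Kit* only cells, with the remaining cells not always placed in the same way. *Ccnd1*, another D-type cyclin, stood at 239, 110, 97.3 and 214 CPM in the same order of cells (ratio 0.406, 0.347 to 0.477). *Cdk4*, a partner of both cyclins, stood at 80.3, 119, 170 and 131 CPM (ratio 2.12, 1.71 to 2.65), and *Cdk6* at 189, 149, 83.7 and 88.2 CPM (ratio 0.443, 0.372 to 0.529). *Rec8*, a meiotic cohesin, stood at 7.23, 18.6, 33.9 and 11.5 CPM (ratio 4.69, 2.39 to 10.5). *Ccnd1*, *Cdk4* and *Rec8* were chosen after their values were seen. *Ccng1*, a p53 target, stood at 150, 46.9, 63.4 and 131 CPM (ratio 0.422, 0.346 to 0.516), *Sgcd* at 183, 67.6, 43.4 and 88.5 CPM (ratio 0.237, 0.192 to 0.293) and *Cited1* at 173, 95.9, 77.6 and 168 CPM (ratio 0.449, 0.374 to 0.540). By contrast *Sycp3* was level at 306, 330, 319 and 279 CPM (ratio 1.04, 0.928 to 1.18), and *Sohlh1* nearly so at 250, 266, 293 and 233 CPM (ratio 1.17, 1.03 to 1.33). *Gfra1* stood at 1.61, 8.28, 18.2 and 10.1 CPM (ratio 11.4, 3.02 to 95.8), and the rule itself admits more *Gfra1* where *Stra8* is high. Genes of the GFRA1 class outside the rule rose too. *Kcnc2* stood at 2.41, 3.45, 30.1 and 31.9 CPM (ratio 12.5, 4.16 to 61.6) and *Glis3* at 58.6, 64.8, 162 and 162 CPM (ratio 2.77, 2.16 to 3.58). The summed stem and undifferentiated genes, genes of the rule included, stood at 997, 1210, 1497 and 1179 CPM. *Sox3* did not rise (ratio 0.859, 0.677 to 1.10).

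**Figure D3:**
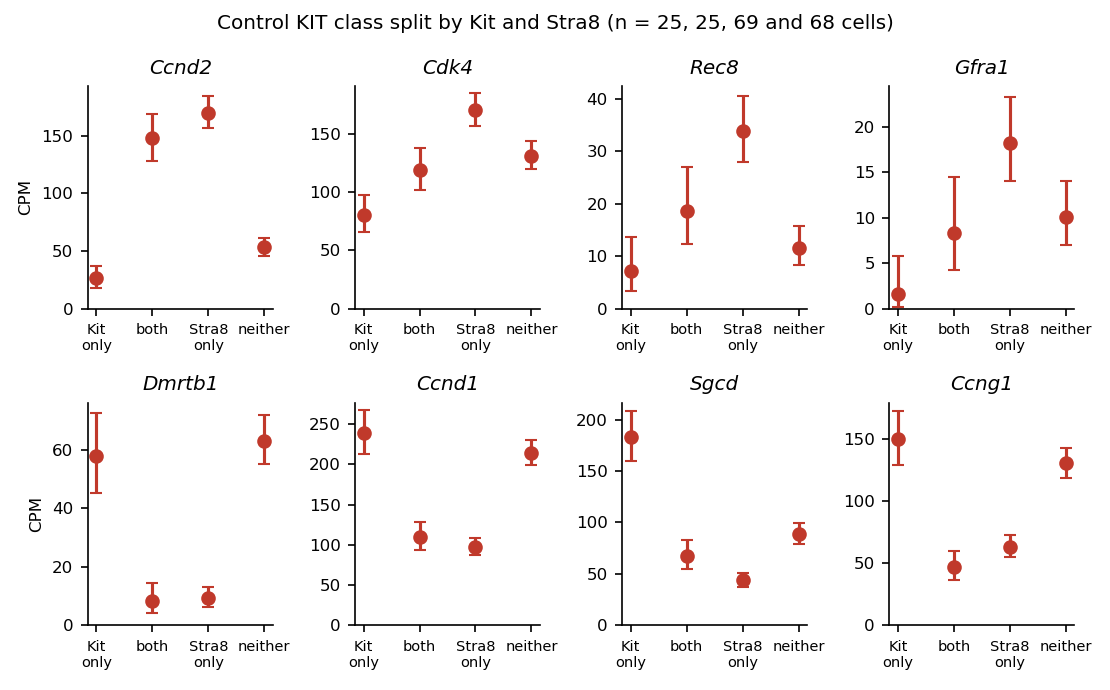
CPM with exact 95% counting intervals of 8 genes in the control KIT class split by at least 3 thinned UMIs of *Kit* (25 cells), of both *Kit* and *Stra8* (25), of *Stra8* (69) or of neither (68). *Ccnd2*, *Cdk4*, *Rec8* and *Gfra1* (top) are higher in *Stra8* only than in *Kit* only cells, and *Dmrtb1*, *Ccnd1*, *Sgcd* and *Ccng1* (bottom) lower.

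Single cells gave related values. Of 5805 genes with a mean of at least 0.3 thinned UMIs, *H2afy*, a macroH2A histone variant gene (Spearman's rho 0.45), and *Ccnd2* (0.44) had the highest correlation with *Stra8*, and *Dmrtb1* (-0.47), *Ccnd1* (-0.40) and *Dmrt1* (-0.39), a transcription factor that restrains meiotic entry in spermatogonia, the lowest. Only 5 genes reached an absolute rho of 0.4 with *Stra8* and 3 with *Kit*. *Ccnd2* (-0.06), *Dmrtb1* (-0.04) and *Ccnd1* (0.05) had no such relation to *Kit*, for which the ribosomal protein gene *Rps20* was lowest (-0.42). The points are 187 cells of 1 library and share its depth, and rho between *Stra8* and log depth was 0.00.

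Of the 3 germ cell classes set here, the KIT class had the lowest ratio of shares between the *Brca1* vKO and control libraries. The classes come from UMI thresholds and are not the clusters of the study, whose order was another. There, the ratio of differentiating and early meiotic cells to progenitors was higher in *Brca1* vKO than in the control. The paper found the step from stem cells to progenitors most affected. Here the KIT class made up 4.63% of cells with at least 10000 UMIs in the control (187 of 4035, 4.01 to 5.33). In *Brca1* vKO it made up 0.122% (8 of 6555, 0.0527 to 0.240), a ratio of 0.0263 (0.0112 to 0.0530). The intermediate class ratio was 0.0982 (0.0623 to 0.149) and the GFRA1 class ratio 0.391 (0.319 to 0.477). Within germ cells, the KIT class was 30.7% of 610 cells in the control and 4.02% of 199 in *Brca1* vKO (ratio 0.131, 0.0558 to 0.264). For every GFRA1 class cell there were 0.719 KIT class cells in the control and 0.0485 in *Brca1* vKO (ratio 0.0676, 0.0280 to 0.141). For every intermediate class cell there were 1.15 and 0.308 (ratio 0.269, 0.102 to 0.633). The 3 ratios of shares have intervals that do not overlap, but those cover counting error in 1 mouse per genotype. More cells were loaded from the *Brca1* vKO testes, and its cells had a lower median depth (12440 against 15570 UMIs per barcode). Loading and genotype cannot be told apart here. Over all alternatives the ratio of KIT class shares lay between 0.0111 and 0.0338. None of them lowered the required ratio of *Kit* and *Stra8* to the stem cell genes. Of germ cells with at least 5 UMIs of *Kit* and *Stra8*, that requirement kept 8 and left out 42 in *Brca1* vKO. In the control it kept 187 and left out 62, so the ratio of shares depends on this part of the rule.

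**Figure D4:**
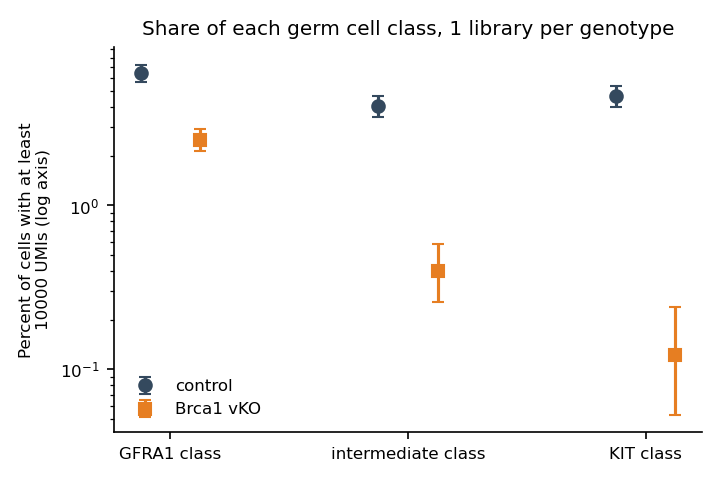
Percent of cells with at least 10000 UMIs in the GFRA1, intermediate and KIT classes of the control (circles) and *Brca1* vKO (squares) library, on a log axis with exact 95% binomial intervals. The gap widens from the GFRA1 class (6.44% and 2.52%) to the intermediate class (4.04% and 0.397%) and the KIT class (4.63% and 0.122%).

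*Brca1*, the targeted gene, did not separate the 2 libraries in the KIT class. It stood at 85.8 CPM in the control and 77.7 CPM (25 UMIs) in the 8 *Brca1* vKO cells (ratio 0.906, 0.583 to 1.35). In the GFRA1 class it stood at 74.7 and 43.3 CPM (ratio 0.579, 0.505 to 0.663) and in Sertoli cells at 29.7 and 25.9 CPM (ratio 0.875, 0.821 to 0.932). Per cell, the 8 held between 0 and 9 *Brca1* UMIs, and 4 of the 8 lay above the control median of 0.750 per 10000. Counts per gene do not tell a transcript of the intact allele from one of the deleted allele, so these values cannot show which of the 8 cells had lost the exons.

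The 8 *Brca1* vKO cells were chosen by *Kit* and *Stra8*, so their levels of these genes describe the rule and are no finding. Their *Kit* ranged from 0 to 8 UMIs and their *Stra8* from 2 to 23 UMIs, and the summed levels were 87.1 CPM for *Kit* and 267 CPM for *Stra8*. Of the 8 cells 1 lay above the control median of *Kit* per 10000 UMIs and 3 above that of *Stra8*. In the GFRA1 class, whose cells were chosen by the same genes, the order was the other way for *Kit*. It stood there at 35.1 CPM in *Brca1* vKO and 8.92 in the control (ratio 3.94, 3.13 to 4.99). *Crabp1* was lower in the *Brca1* vKO KIT class (ratio 0.596, 0.462 to 0.758), and the 15 retinoic acid genes tested had a median log2 ratio of -0.42 with none called.

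Some targets of p53, the transcription factor activated by DNA damage, were higher in these 8 cells. Between the KIT classes 133 of 10980 genes (1.21%) were higher in *Brca1* vKO and 237 (2.16%) lower (median -0.06), while of 21 tested p53 targets and death effectors 8 were higher, 1 lower and 12 neither, with a median of 0.89. *Ccng1*, a cyclin and p53 target, stood at 510 against 96.5 CPM (ratio 5.29, 4.45 to 6.25). *Cdkn1a*, the cell cycle inhibitor p21, stood at 199 against 10.2 CPM (ratio 19.6, 14.0 to 27.1), *Mdm2*, the ubiquitin ligase that limits p53, at 193 against 76.0 CPM (ratio 2.54, 1.92 to 3.29) and the death receptor gene *Eda2r* at 52.9 against 3.53 CPM (ratio 15.0, 7.84 to 27.6). *Bax*, a mediator of apoptosis, stood at 693 against 349 CPM (ratio 1.99, 1.73 to 2.28). *Cdkn1a*, *Mdm2*, *Eda2r* and *Bax* were chosen after their values were seen.

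The per-cell values differed between the targets. *Ccng1* ranged from 3 to 44 UMIs in the 8 cells, or 2.39 to 8.54 per 10000 with a median of 3.83, and all 8 lay above the upper quartile of the control cells (1.46), whose median was 0.704. *Cdkn1a* ranged from 0 to 4.38 per 10000 with a median of 1.49, and 7 of 8 cells lay above the control upper quartile of 0.0963. For *Mdm2* 6 of 8 did so, and for *Phlda3* 4 of 8. The highest control cells, at 4.42 for *Ccng1* and 1.77 for *Cdkn1a*, reached into the range of the *Brca1* vKO cells. In the GFRA1 class, *Ccng1* had a ratio of 5.60 (5.05 to 6.22) and *Cdkn1a* of 9.04 (7.72 to 10.6), and 6 of 25 p53 genes were higher against 0.700% of all 12571 genes higher and 0.549% lower. In Sertoli cells, where *Vasa-Cre* is not active, the ratios were 0.870 and 1.80, and 0 of 26 were called against 0.0900% of 15564 genes higher and 0.0450% lower.

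**Figure D5:**
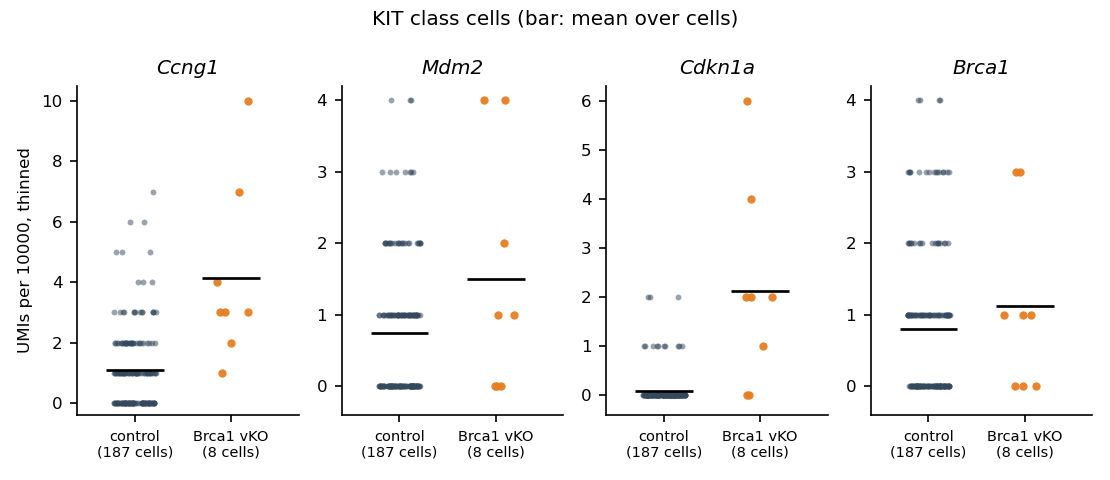
UMIs of *Ccng1*, *Mdm2*, *Cdkn1a* and *Brca1* in each KIT class cell after thinning to 10000 UMIs, for 187 control and 8 *Brca1* vKO cells, with a bar at the mean over cells. *Ccng1* runs from 1 to 10 UMIs in *Brca1* vKO and from 0 to 7 in control cells, *Cdkn1a* from 0 to 6 and from 0 to 2, and for all 4 genes the 2 groups of points overlap.

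Other gene groups moved with the p53 targets. Markers of macrophages and neutrophils, summed, stood at 15.5 CPM in the *Brca1* vKO and 2.28 in the control KIT class, where none reached the count minimum. They stood at 221 against 3.94 CPM in the GFRA1 class (3 of 4 genes higher) and 122 against 5.97 CPM in Sertoli cells (2 of 9 higher), and their part in the other values was not tested. Of 13 genes of dissociation stress 8 were higher in *Brca1* vKO (median 1.15), led by the immediate early genes *Junb* (208 against 29.3 CPM), *Btg2* (361 against 61.3 CPM) and *Ier2* (143 against 35.9 CPM). All 5 tested stroma genes and the 1 tested myoid gene were higher (medians 1.36 and 1.33), and the summed stroma genes reached 292 against 70.5 CPM. Per cell, UMIs of the Sertoli, stroma and myoid genes together were between 4.96 and 22.3 per 10000 in *Brca1* vKO and between 1.83 and 50.9 in the control (medians 8.27 and 3.85). Without the 1 *Brca1* vKO and 5 control cells at 20 per 10000 or more, the stroma median was 0.14 and the stress median 0.95, and the log2 ratio of *Junb* fell from 2.47 to 1.29, of *Btg2* from 2.38 to 1.61 and of *Ier2* from 1.74 to 1.19. The p53 list median was then 0.54, and the log2 ratio was 2.09 for *Ccng1* (2.29 before), 2.99 for *Cdkn1a* (3.37 before) and 1.18 for *Mdm2* (1.24 before). The 7 *Brca1* vKO cells kept still held 4.96 to 13.5 UMIs of somatic genes per 10000, and the part of somatic and stress transcripts in these values was not tested.

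Genes of meiosis and DNA repair were hardly called in the 8 cells. Of 40 meiotic genes 2 were lower and none higher (median -0.21), and none of 37 genes of homologous recombination and the Fanconi pathway was called (median -0.08). The axon guidance ligand gene *Efna5* stood at 106 against 19.0 CPM (ratio 5.56, 3.74 to 8.06), seen in 5 of the 8 cells, but its log2 ratio turned from 2.0 to -0.35 with a somatic limit of 2 per 10000, which left 3 of these cells. The haemoglobin genes *Hbb-bs* (28.0 against 170 CPM) and *Hba-a1* led the lower genes. Red blood cell genes were also lower in the GFRA1 class (4 of 4) and in Sertoli cells (4 of 5) of the *Brca1* vKO library. *Agbl4*, a carboxypeptidase that trims tubulin, stood at 12.4 against 86.2 CPM, the potassium channel gene *Kcnq5* at 6.22 against 57.7 CPM, and the antisense gene *Hnf4aos* at 3.11 CPM (1 UMI) against 51.9 CPM (ratio 0.0599, 0.00151 to 0.335), each from few UMIs in the 8 cells.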

How the data were processed

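Single cells from PD7 testes of 1 control and 1 *Brca1* vKO mouse had been sequenced after 10x Genomics capture. The authors aligned the reads to mm10 with Cell Ranger 6.0.2 and deposited raw UMI counts per gene and barcode (32285 genes, 5812 and 9456 barcodes, 120568700 and 165062097 UMIs, medians 15570 and 12440). No authors' cell annotation was used. Barcodes with at least 750 genes and at most 10% mitochondrial UMIs numbered 5077 and 8712.

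Classes were set by UMI thresholds, without clustering. Sertoli cells needed at least 5 UMIs, and 3 per 10000, of the fixed Sertoli marker genes and fewer than 1 per 10000 of *Ddx4* and *Dazl*. UMIs were summed per class and library, with CPM taken over all genes and a pseudocount of 10 CPM. With 1 library per genotype no test was run. Intervals are exact Poisson, Clopper-Pearson or conditional ones at 95% (scipy 1.17.1, Python 3.11.15). UMI ratios and thinning (seed 7) were tested on simulated data. Scrublet (scanpy 1.11.5) marked doublets, which were removed only in an alternative. TMM came from edgeR 4.0.16 in R 4.3.3.

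Genes named were those of the rule, markers, up to 4 per list by absolute log2 ratio plus *Brca1*, the 12 highest and 12 lowest between KIT and GFRA1 class and the 5 highest and 5 lowest between libraries, with at least 200 UMIs. Others were chosen after their values were seen. 1 of the 12 highest genes is not reported here. Members and lists were chosen with earlier results of these data known. Coordinates are from GRCm38, and 32158 of the gene IDs were found in GENCODE M21. Promoters are from RefSeq. The alternatives changed 1 choice at a time: limits on depth, markers, somatic genes and mitochondrial UMIs, doublets, thinning, pseudocount, gene minimum, fold and scaling.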

Additional observations from a re-analysis of the deposited data

Results flagged for a closer look

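Cells outside the limits of the rule carried its markers too. In the control library, 20 germ cells below 10000 UMIs met every other condition of the KIT class, against 1 in the *Brca1* vKO library, and a further 9 control cells were over 10% mitochondrial UMIs, against 0. They were picked out because they hold the same signal in data that no comparison above used, and none of the values above includes them.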

How the results depend on the processing

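No paired analysis was possible because each genotype had 1 library. Nothing here was tested, and 1 mouse per genotype, 8 *Brca1* vKO cells and counting error limit what the values can show. Of 2588 values recomputed under 19 alternatives fixed at the start and 1 chosen after the data were seen, 2133 stayed inside a set band or within 1.5 times the count. The band was the counting interval for single genes, shares of cells and the share ratio. For list medians it was the median of the member genes' bounds, and for medians of all genes it had a fixed width. Of the remaining values, 3 whose first value was at or past 1 on the log2 scale changed sign. Medians and ratios near 0 changed sign more often, as given below. The direction of the share ratio held under every alternative, between 0.0111 (somatic limit of 2 per 10000) and 0.0338. No alternative lowered the required ratio of *Kit* and *Stra8* to the stem cell genes. The cause of the shifts below was not tested.

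The number of control KIT class cells was 60 with a mitochondrial limit of 5% and 89 with markers read after thinning. In *Brca1* vKO it was 3 and 4 there, 5 with a class minimum of 10 UMIs and 3 with the somatic limit of 2. For a pseudocount of 1 CPM, one of 50 CPM and a fold of 1.5, the genes higher in the KIT than in the GFRA1 class numbered 689, 18 and 700 and those lower 946, 64 and 912. Against the intermediate class these were 543, 8 and 659 higher and 456, 24 and 548 lower, and between the libraries 415, 17 and 675 higher and 1173, 5 and 1328 lower.

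Against the intermediate class, the higher genes numbered 46 with a class minimum of 10 UMIs, 196 with the mitochondrial limit, 21 after thinning (90 lower), 59 with TMM and 58 with median-of-ratios scaling. Between the libraries they numbered 395 (1346 lower) with the somatic limit, 254 (1423 lower) with the mitochondrial limit and 285 (912 lower) after thinning, and 363 were lower with a class minimum of 10 UMIs.

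For KIT against GFRA1 class, the stem cell list median was -1.13 with a class minimum of 10 UMIs, -1.15 with the mitochondrial limit, -1.11 after thinning, -1.54 and -0.44 with pseudocounts of 1 and 50 CPM and -0.69 with no gene minimum. After thinning the median was 0.81 for differentiation, 0.12 for G2/M, 0.05 for piRNA, -0.04 for glycolysis and -0.77 for endothelial genes. With the mitochondrial limit it was -0.14 for G2/M, -0.06 for glycolysis, 0.55 for stroma, -1.13 for endothelial and -0.84 for red blood cell genes. With pseudocounts of 1 and 50 CPM it was -0.61 and -0.14 for adhesion, -1.45 and -0.15 for endothelial and -0.52 and -0.26 for stress genes, and with 50 CPM 0.18 for retinoic acid genes.

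With each cell weighted equally it was 0.09 for G2/M and -0.36 for red blood cell genes, and with no gene minimum -0.05 for glycolysis. The stress median was -0.53 with the somatic limit. The endothelial median was -0.67 with a ratio above 4, -0.34 without doublets, -0.44 with a gene minimum of 20 UMIs and -0.44 with none. The red blood cell median was 2.0 and -1.48 with class minimums of 3 and 10 UMIs, 1.11 with a ratio above 4 and 1.12 without doublets, so that list has no stable direction. Without members rich in somatic transcripts the Sertoli median was -0.19.

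Between the libraries, the stress median was 0.32 with the mitochondrial limit. The stroma median turned to -0.06 with the somatic limit and to -0.26 after thinning, and was 0.64 with 50 CPM and 0.14 without members rich in somatic transcripts. *Efna5* turned to -0.35 with the somatic limit, which left 3 *Brca1* vKO cells. The p53 median lay between 0.43 and 0.99 under all alternatives.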

Other observations

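The cells of the control KIT class that were at or above 3 thinned UMIs for neither *Kit* nor *Stra8* differed from the rest in what they held besides germ cell transcripts. Their summed red blood cell genes reached 645 CPM, against 110, 91.0 and 122 CPM in the cells with *Kit* only, both and *Stra8* only. Their summed Sertoli genes reached 416 CPM, against 236, 270 and 279 CPM. Ribosomal protein genes made up 15.3% of their UMIs, against 12.8%, 12.9% and 14.2%. Median depth was 49442 UMIs, inside the range of the other cells. A sum over cells can rest on a few of them, and the spread of these sums between cells was not measured.

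Glycolysis genes were lowest in the cells with *Kit* only, at 1672 CPM, and highest in those with *Stra8* only, at 2283 CPM. Summed retinoic acid genes stood at 1163 CPM in *Kit* only, 1642 in both, 1549 in *Stra8* only and 1087 in neither, and that sum holds *Stra8* itself. Meiotic genes were nearly level, between 4067 and 4621 CPM, as were S phase genes, between 5844 and 6218 CPM. The sums are over 25 to 69 cells of 1 library and were not tested.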
